A study of Mus musculus with 3 samples.

Results

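The genes described here encode enzymes that add or remove methyl groups on histones, other proteins and DNA, or that remove acetyl groups, together with the Brd proteins. They were taken by symbol, as every protein-coding gene whose name starts with Kmt, Setd, Ezh, Prmt, Dnmt, Tet, Kdm, Hdac, Sirt or Brd and fits the usual numbering of that family. The rule found 79 genes among 22028 protein-coding genes and 55536 genes in all, and no measured value entered the choice. RNA from the cytosolic fraction of mouse C57BL/6J bone marrow-derived macrophages was sequenced after removal of ribosomal RNA. The 3 libraries form 1 group and are labelled as biological replicates 1, 2 and 3 under 1 donor identifier, with sex and age not collected. The cells had received lipid A, the part of bacterial lipopolysaccharide that macrophages sense, at 100 ng/ml for 12 h, had been kept without it for 12 h, and were taken at 0 min of a second dose. Every value describes this state and none an effect of lipid A, because cells without lipid A or after the second dose were not analysed here. The labels do not say that the replicates came from separate animals, so the spread between libraries may be a technical one.

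Writers such as the Kmt, Setd, Ezh, Prmt and Dnmt enzymes place methyl groups, and erasers such as the Kdm and Tet enzymes remove or oxidise them. Hdac and Sirt enzymes take acetyl and other acyl groups off lysine, and Brd proteins read acetylated lysine through their bromodomains. In macrophages several are known regulators of inflammatory genes: Kdm6b is induced by lipopolysaccharide in mouse macrophages, and Tet2 takes part in shutting down the cytokine gene Il6 in mice. These proteins mostly act in the nucleus, whereas the RNA measured here is the cytosolic pool from which they are translated.

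The sequences before some start sites are shown because several members have annotated starts that differ in CpG content before them. CpG is the dinucleotide that Dnmt enzymes methylate. RefSeq windows on GRCm38.p6 matched 65 of the 79 members, with 91 windows. Each line below gives the bases before an annotated start that lie outside every annotated exon, 5′ to 3′, with CpG in capitals.
Dnmt3a start 1 (chr12:3806730-3806979, plus strand): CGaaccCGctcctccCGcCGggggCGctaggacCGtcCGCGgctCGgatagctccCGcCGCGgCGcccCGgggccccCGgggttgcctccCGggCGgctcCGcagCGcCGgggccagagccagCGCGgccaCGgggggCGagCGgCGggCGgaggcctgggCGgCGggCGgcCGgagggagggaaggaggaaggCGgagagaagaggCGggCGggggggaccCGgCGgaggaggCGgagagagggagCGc
Dnmt3a start 2 (chr12:3891494-3891727, plus strand): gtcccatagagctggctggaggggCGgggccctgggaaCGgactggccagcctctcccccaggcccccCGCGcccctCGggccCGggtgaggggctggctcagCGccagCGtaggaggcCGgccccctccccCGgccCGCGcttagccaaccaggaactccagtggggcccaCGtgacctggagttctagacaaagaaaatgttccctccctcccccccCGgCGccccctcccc
Dnmt1 start 1 (chr9:20959889-20960138, minus strand): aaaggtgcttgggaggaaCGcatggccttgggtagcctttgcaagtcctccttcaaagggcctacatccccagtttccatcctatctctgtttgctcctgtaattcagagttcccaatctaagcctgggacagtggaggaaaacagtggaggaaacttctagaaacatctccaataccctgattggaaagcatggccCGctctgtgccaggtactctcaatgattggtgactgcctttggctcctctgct
Dnmt1 start 2 (chr9:20952980-20953229, minus strand): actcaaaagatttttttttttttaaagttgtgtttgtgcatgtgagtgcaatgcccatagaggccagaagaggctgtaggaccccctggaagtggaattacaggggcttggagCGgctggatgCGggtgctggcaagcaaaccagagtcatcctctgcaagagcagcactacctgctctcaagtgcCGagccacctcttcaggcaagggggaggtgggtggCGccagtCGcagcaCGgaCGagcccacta
Kdm2b start 3 (chr5:122900368-122900617, minus strand): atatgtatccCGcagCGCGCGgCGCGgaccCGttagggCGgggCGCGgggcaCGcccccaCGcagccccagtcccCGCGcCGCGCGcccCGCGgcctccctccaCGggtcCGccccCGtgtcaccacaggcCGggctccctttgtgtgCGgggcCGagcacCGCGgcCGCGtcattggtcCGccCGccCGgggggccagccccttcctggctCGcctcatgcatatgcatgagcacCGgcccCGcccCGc
Kdm7a (chr6:39206790-39207023, minus strand): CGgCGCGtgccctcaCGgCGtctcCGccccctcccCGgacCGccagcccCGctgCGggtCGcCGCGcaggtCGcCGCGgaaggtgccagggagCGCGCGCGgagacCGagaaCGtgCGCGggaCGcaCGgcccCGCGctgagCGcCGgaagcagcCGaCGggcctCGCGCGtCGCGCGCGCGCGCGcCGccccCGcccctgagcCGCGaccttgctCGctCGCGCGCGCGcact
The stretch before Dnmt3a start 1 holds 38 CpG and that before start 2 holds 15. The stretches before Dnmt1 starts 1 and 2 hold 2 and 7. Kdm2b start 3 has 36, and Kdm7a, a demethylase gene, has 52 in 234 bases. Over the whole 250-base windows Kdm7a reached 56, the highest number among the members, which is also the highest among all protein-coding genes with a window.

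Taken per gene by its richest window, members held a median of 20 CpG per 250 bases, against 11 over the 16522 protein-coding genes with a window. Among genes at 1 TPM or more in every library the medians were 21.5 in 54 members and 18 in 7268 protein-coding genes. TPM expresses how abundant a gene's transcripts are among all transcripts once their lengths are allowed for. Among genes below that level in any library they were 15 in 11 members and 5 in 9254 protein-coding genes. The GC box GGGCGG, searched on both strands and itself holding a CpG, was in 61.5% of member windows and 44.1% of all protein-coding windows. These are shares of 91 and 20150 windows. A match is a description of the letters and not evidence of binding.

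Gene rows held 28981178, 53119941 and 46783133 expected counts in replicates 1, 2 and 3, so that a count of 0 allows 0.104, 0.0565 and 0.0641 CPM, counts scaled to the library total (3 counts, counting error only). The 8 macrophage markers all reached 10 TPM in every library, the highest being Lyz2 at 3326 ± 193 TPM (SD, n = 3). Each list of T and NK, B, dendritic, and stromal and erythroid markers summed to at most 0.270 TPM in any library, and of 6 neutrophil markers S100a8 and S100a9 reached 1 TPM, with list sums of 4.92, 8.70 and 9.55 TPM and Ly6g at 0. Replicate 3 stood apart in RNAs known to stay in the nucleus: Malat1 held 158, 91.0 and 1343 TPM and Neat1 16.8, 10.4 and 91.4 TPM. In bulk RNA, fewer cells of a type and less RNA per cell cannot be told apart.

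RNA of most of these genes was present, and at moderate levels. Of 79 members, 66 (83.5%) reached 1 TPM in every library, against 41.2% of all protein-coding genes. At 10 TPM, as deposited, the share was closer to the background: 19 members (24.1%), against 17.1%. The median member held 5.73 ± 1.30 TPM, and the median protein-coding gene 0.157 ± 0.046 TPM (SD, n = 3). The count at 10 TPM and its relation to the background depend on the scale. With TPM rescaled to protein-coding genes 51 of 79 members passed, well above the background share of 32.4%. With TPM estimated directly from the reads 4 of 79 did, below the background share of 6.47%. Brd2, Dnmt3a and Sirt2 led in this order, and each was above the next in all 3 libraries, by a mean gap larger than the SD of that gap. With protein-coding transcripts of 1000 bases or more alone, Dnmt3a was below Sirt2 in every library, at 28.7 ± 4.75 and 35.0 ± 0.267 TPM (SD, n = 3). Further down few ranks were separated. Of the 78 pairs of neighbours in the order, 13 had a mean gap above its SD and the same sign in every library.

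**Figure D1:**
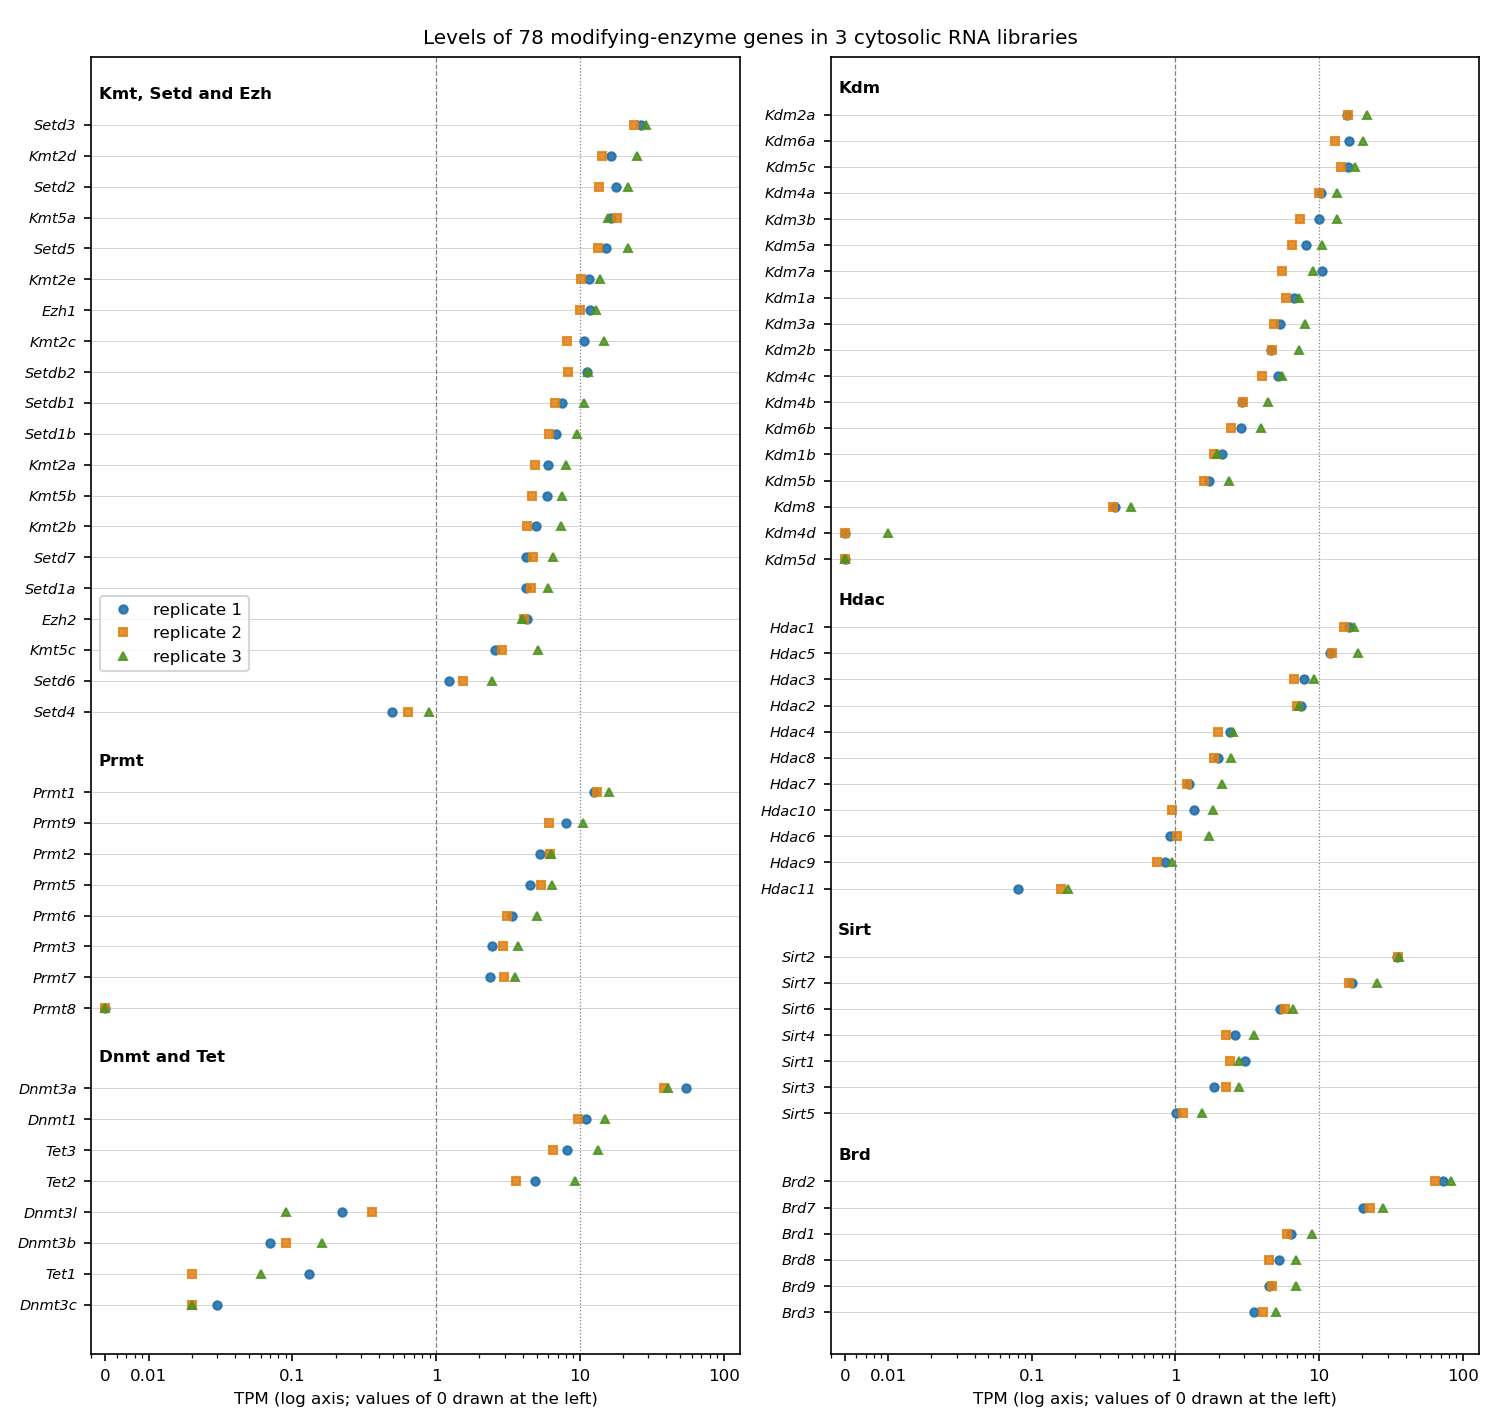
TPM of 78 members on a log axis, 1 row per gene, grouped by family and sorted by mean, with replicates 1, 2 and 3 as circles, squares and triangles and dashed and dotted lines at 1 and 10 TPM. Brd2 is the highest at 73.0 TPM on average, and Prmt8 and Kdm5d lie at 0 in every library.

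Of the 20 Kmt, Setd and Ezh genes, not all of which encode histone lysine methyltransferases, all but Setd4 reached 1 TPM in every library. At 10 TPM there were 7. Setd3, which methylates a histidine of actin, was the highest, at 26.7, 23.7 and 28.7 TPM in replicates 1, 2 and 3. The upper bound of the deposited 95% interval for Setd3 in replicate 1 was 51.4 TPM, so its own level there is loosely set. Kmt2d, an H3K4 methyltransferase of enhancers, held 16.6, 14.2 and 24.9 TPM. Setd2, which trimethylates H3K36 along transcribed genes, held 18.0, 13.7 and 21.6 TPM. Replicate 3 was the highest for all 3 genes by TPM, but by TMM-scaled CPM, counts scaled between libraries, only for Kmt2d: Setd3 held 105.3, 100.7 and 95.9 and Setd2 159.0, 126.9 and 151.1. Kmt5a, which monomethylates H4K20, held 16.5, 18.1 and 15.8 TPM and did not follow that order. Its relatives Kmt5b and Kmt5c, which add further methyl groups at H4K20, averaged 5.99 ± 1.43 and 3.53 ± 1.39 TPM (SD, n = 3). Setd4 was the lowest, with 0.490, 0.640 and 0.890 TPM from 20, 43 and 54 expected counts. The SET-domain genes Setd5 and Kmt2e averaged 16.7 ± 4.34 and 11.9 ± 1.79 TPM, and Setd7 and Setd6, which also methylate proteins other than histones, 5.16 ± 1.21 and 1.74 ± 0.627 TPM (SD, n = 3).

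The 6 H3K4 methyltransferases Kmt2a, Kmt2b, Kmt2c, Kmt2d, Setd1a and Setd1b all passed 1 TPM in every library. Kmt2d made up 34.1% of their summed level. All 11 genes listed as partners of these enzymes, most of them for COMPASS subunits, reached 1 TPM too. Hcfc1 held 16.8 ± 2.04, Wdr82 13.7 ± 1.30 and Paxip1 1.91 ± 0.650 TPM (SD, n = 3). Within each library Kmt2c, the other enhancer enzyme, was below Kmt2d, with a log2 ratio of -0.73 ± 0.093. That ratio was -0.04 when only protein-coding transcripts of 1000 bases or more were summed, a measure chosen after seeing the data, because short Kmt2d transcripts were left out. A transcript of 899 bases took 31.0% of the gene's TPM but 1.74% of its counts. Kmt2a and Kmt2b were nearly level, at a log2 ratio of 0.19 ± 0.079, and Setd1a was below Setd1b at -0.60 ± 0.14 (SD, n = 3). The H3K9 methyltransferase Setdb1 was below Setdb2 in all 3 libraries, but the ratio ranged between -0.57 and -0.10.

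For H3K27, the mark of Polycomb repression, Ezh1 was the catalytic subunit gene with more RNA. Ezh2, usually high in dividing cells, held 4.27, 4.06 and 3.93 TPM, against 11.8, 10.02 and 13.0 TPM for Ezh1. The libraries of the pair did not overlap, and the log2 ratio of Ezh2 over Ezh1 was -1.50 ± 0.21 (SD, n = 3). Of 10 Polycomb repressive complex 2 partners 8 reached 1 TPM in every library, with the core subunits Rbbp7 at 22.4 ± 3.58 and Rbbp4 at 15.9 ± 1.52 TPM and Epop lowest at 0.230 ± 0.140 TPM. Of 14 cell cycle genes 9 did. Pcna, the replication clamp gene, held 64.3 ± 2.51 TPM, whereas the mitotic kinase gene Plk1 held 0.223 ± 0.098 TPM (SD, n = 3).

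By gene TPM the arginine methyltransferases were led by Prmt1, the main source of asymmetric dimethylarginine, at 12.6, 13.2 and 16.0 TPM. Prmt9, which methylates a splicing factor, followed at 8.21 ± 2.23 TPM (SD, n = 3). Prmt5, which makes the symmetric form, held 5.44 ± 0.976 TPM, giving a log2 ratio of Prmt1 over Prmt5 of 1.36 ± 0.11. The sign of that ratio turned to -0.13 when protein-coding transcripts under 1000 bases were left out, since transcripts of 741 and 945 bases took 33.9% and 18.5% of Prmt1. With protein-coding transcripts of 1000 bases or more alone Prmt1 did not lead. Prmt9 then averaged 7.08, Prmt2 5.81, Prmt5 5.21 and Prmt1 4.73 TPM. Prmt8, a mainly neuronal enzyme, had no counts. The other members Prmt2, Prmt3, Prmt6 and Prmt7 ranged between 2.95 and 5.94 TPM on average.

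DNA methyltransferases were represented almost entirely by Dnmt3a and Dnmt1. Dnmt3a, a de novo methyltransferase (chromosome 12, 3806007 to 3914443, plus strand, GRCm38), held 54.4, 38.8 and 40.9 TPM. It was the only one of the 20 most abundant members that was highest in replicate 1 by TPM and made up 62.2% of the summed Dnmt and Tet level. Dnmt1, which copies methylation after replication, held 11.0, 9.65 and 15.1 TPM. The log2 ratio of Dnmt1 over Dnmt3a was -1.92 ± 0.44 (SD, n = 3), and it was -1.31 with long protein-coding transcripts alone. Part of Dnmt3a's level was short: a retained-intron transcript of 369 bases took 24.1% of its TPM and 0.804% of its counts. The other de novo gene Dnmt3b held 0.070, 0.090 and 0.160 TPM from 13 to 32.7 expected counts. Dnmt3c, a rodent gene of the male germline, had 2.27 to 4 counts.

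Dnmt3l, a cofactor of Dnmt3a without catalytic activity, was the single member called as differing between libraries. It had 8, 28 and 8 expected counts and 0.220, 0.360 and 0.090 TPM in replicates 1, 2 and 3. Scaled to library size by TMM, its highest value was 3.10 times its lowest (chi-square test of homogeneity over all genes, Benjamini-Hochberg adjusted p = 0.00858). The test sets the libraries against counting error alone and leaves out any other spread between them. It took the expected counts, which are estimates, as counts. The deposited intervals for Dnmt3l were 0.217 to 4.36, 0.290 to 1.71 and 0.123 to 2.11 TPM in replicates 1, 2 and 3. These intervals overlap, so the level of Dnmt3l in each library is loosely set and the call is uncertain. A gene was called at an adjusted p under 0.05 and a ratio of at least 2. By that rule 1 of 75 tested members was called, against 16.2% of all genes and 8.12% of protein-coding genes tested. Without replicate 2 or without replicate 3 no member was called. No member was called with its highest value in replicate 3, against 3.76% of protein-coding genes. Dnmt3c, Kdm4d, Prmt8 and Kdm5d averaged fewer than 10 counts and were not tested. At any ratio 76.0% of tested members had an adjusted p under 0.05, against 75.9% of protein-coding genes.

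For the Tet dioxygenases, which oxidise methylcytosine, the RNA was mostly that of Tet3 and Tet2. Tet3 held 8.18, 6.48 and 13.3 TPM, Tet2 4.90, 3.60 and 9.32 TPM, and Tet1 0.130, 0.020 and 0.060 TPM from 10, 15 and 20 counts. Replicate 3 was the highest for Tet3 and Tet2. Of Tet2's TPM in that library 37.2% was in retained-intron transcripts, and its long protein-coding transcripts held 4.13, 3.22 and 4.92 TPM. Summed, the DNA methylation writers Dnmt1, Dnmt3a and Dnmt3b held 56.7 ± 8.53 TPM and the Tet genes 15.3 ± 6.55 TPM (SD, n = 3). The log2 ratio was 2.31, 2.26 and 1.31 in replicates 1, 2 and 3. Of 15 genes for readers and partners of DNA methylation 14 reached 1 TPM, with the methyl-binding Mbd2 highest at 47.3 ± 1.58 TPM.

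Transcripts annotated from these starts held uneven shares of a gene's TPM, counted over transcripts whose annotated start lies in each RefSeq window. Start sites themselves were not measured. For Dnmt3a, transcripts of the CpG-rich start 1 took 39.8 ± 3.83% of TPM (SD, n = 3). Start 2, which gives the shorter protein known as Dnmt3a2, took 24.7 ± 3.00%. Start 1 was above start 2 in every library, also with TPM estimated from the reads (30.5 against 24.2% on average). For Dnmt1 the CpG-poor starts carried nearly everything: start 2 took 61.9 ± 1.93% and start 1 took 35.2 ± 1.28%, whereas start 3, the annotated start just downstream with 26 CpG in its window, took 0.935 ± 0.693% (SD, n = 3). For Kdm2b, which binds CpG islands, start 3 (38 CpG in its richest window) took 74.4 ± 7.84% and start 1 (27 CpG) 8.62 ± 4.69%. For Kmt5a, start 1 (16 CpG) took 64.1 ± 3.68% and start 2 (39 CpG) 5.67 ± 1.704%. With TPM estimated from the reads, Kdm2b start 3 took 53.6% and Kmt5a start 1 took 47.8% on average. Of the members, 12 had windows with starts more than 300 bases apart.

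**Figure D2:**
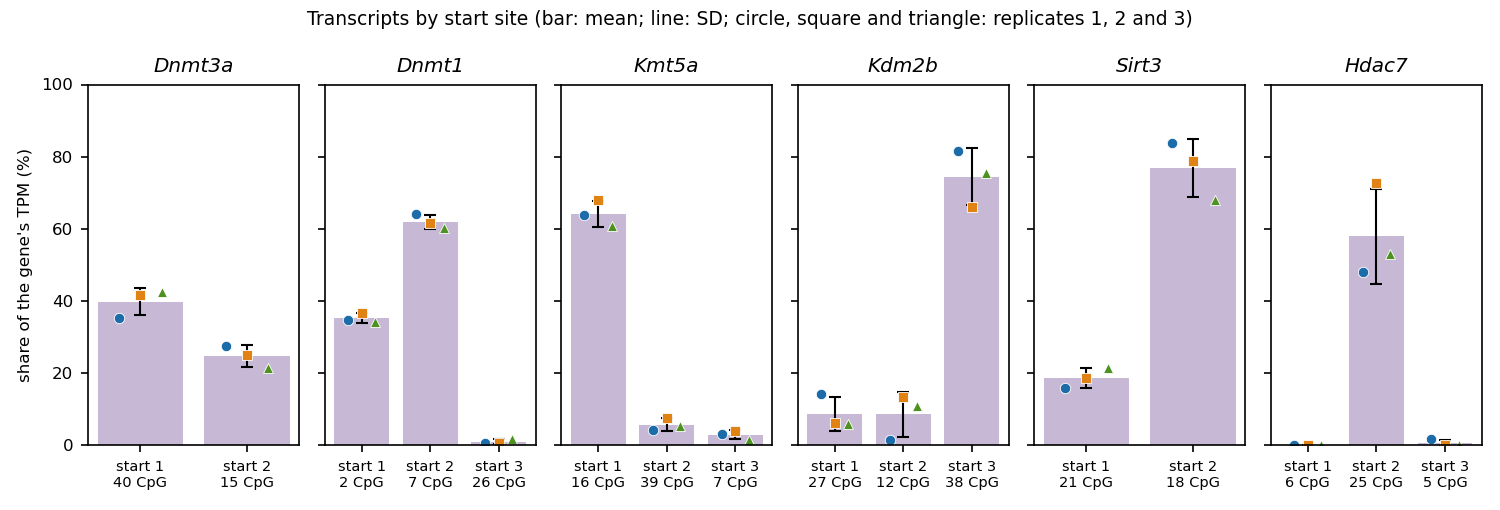
Share of each gene's TPM, in percent, in transcripts that begin at each RefSeq start, numbered from the 5′ end, for 6 genes, with the number of CpG in the richest 250-base window of each start. Bars are means, lines SD, and circles, squares and triangles replicates 1, 2 and 3. Dnmt1 start 2 has 61.9% with 7 CpG before it, and start 3, just downstream, has 0.935% with 26 CpG before it.

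Among the demethylases, 15 of 18 Kdm genes reached 1 TPM in every library. Kdm2a, which removes methyl groups from H3K36, held 15.7, 15.8 and 21.6 TPM. Kdm5c, an X-linked H3K4 demethylase, held 16.0, 14.3 and 17.7 TPM. Its homologue on the Y chromosome, Kdm5d, had no counts in any library, and neither had the Y-linked genes Ddx3y, Eif2s3y, Uty and Usp9y. Kdm4d, a testis gene, had 2 counts, all in replicate 3, and Kdm8 averaged 0.413 ± 0.067 TPM (SD, n = 3). Kdm1a, the flavin-dependent H3K4 demethylase, exceeded Kdm1b by 1.75 ± 0.14 on the log2 scale. The other Kdm genes that reached 1 TPM averaged between 1.88 TPM for Kdm5b and 11.2 TPM for Kdm4a, an H3K9 and H3K36 demethylase. Kdm2a exceeded Kdm2b by 1.701 ± 0.10, whereas Kdm3a was below Kdm3b by a log2 ratio of -0.75 ± 0.16 and Kdm5a below Kdm5c by -0.96 ± 0.19 (SD, n = 3). The Kdm5a ratio was -1.97 with long protein-coding transcripts alone.

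The H3K27 demethylases were very unequal. Kdm6b, which lipopolysaccharide is known to induce, held 2.88, 2.44 and 3.93 TPM. Kdm6a (chromosome X, 18162575 to 18279936, plus strand) held 16.1, 12.8 and 20.1 TPM. The log2 ratio of Kdm6b over Kdm6a was -2.41 ± 0.067 (SD, n = 3). It was -1.94 with long protein-coding transcripts alone.

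The summed writers and erasers of a mark were compared within each library. H3K4 writers held 54.1 ± 14.8 TPM and H3K4 erasers 34.8 ± 4.82 TPM, with a log2 ratio of 0.61 ± 0.19. H3K27 writers held 15.7 ± 1.46 TPM and erasers 19.4 ± 4.42 TPM, at -0.29 ± 0.20, and this ratio was -0.03 with long protein-coding transcripts alone (SD, n = 3). For H3K9 and H3K36 the sign depended on which writers the symbol rule takes in. Setdb1 and Setdb2 held 18.6 ± 3.55 TPM against 35.8 ± 7.90 TPM for the H3K9 erasers, a log2 ratio of -0.94 ± 0.087. With Ehmt1, Ehmt2, Suv39h1 and Suv39h2 added, a choice made after seeing the data, the writers held 59.6 ± 13.1 TPM and the ratio was 0.74 ± 0.012. Setd2 alone held 17.7 ± 3.98 TPM against 42.7 ± 8.14 TPM for the H3K36 erasers, at -1.27 ± 0.17, and with Nsd1, Nsd2, Nsd3 and Ash1l added the ratio was 0.78 ± 0.13 (SD, n = 3). These genes come from a list of 13 other methyltransferases, of which 12 reached 1 TPM in every library, Ehmt2 and Nsd3 being highest at 32.0 ± 8.14 and 24.5 ± 4.87 TPM and Suv39h2 lowest at 0.393 ± 0.283 TPM (SD, n = 3). The added genes entered the writer sums only, so they could only raise the H3K9 and H3K36 ratios. Kdm4a, Kdm4b and Kdm4c were counted as erasers of both of these marks. Kdm7a, at 8.32 ± 2.51 TPM (SD, n = 3), was in none of the eraser sums. RNA sums do not measure the activity of the enzymes.

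**Figure D3:**
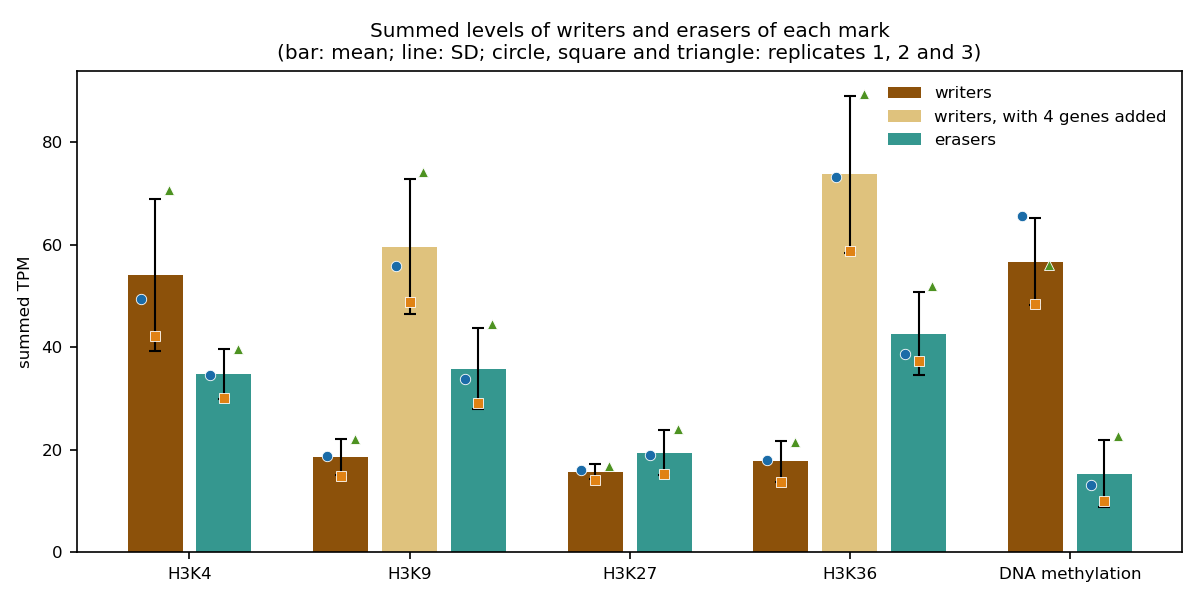
Summed TPM of writers and erasers of 4 histone marks and of DNA methylation, with the H3K9 and H3K36 writers also shown with 4 further genes each. Bars are means, lines SD, and circles, squares and triangles replicates 1, 2 and 3. Without those genes the H3K9 writers stand at 18.6 TPM and with them at 59.6 TPM, against 35.8 TPM for the erasers.

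Among the deacetylases, 7 of 11 Hdac genes reached 1 TPM in every library. Class I, the nuclear repressor enzymes, held 33.4 ± 2.93 TPM in sum, and Hdac1 gave 48.4% of it. Hdac1 held 16.1, 15.0 and 17.5 TPM, against 7.46, 7.06 and 7.27 TPM for Hdac2, its partner in the same complexes. The libraries of the pair did not overlap, and the log2 ratio was 1.15 ± 0.10. Hdac3, the catalytic subunit of the NCoR complex, held 7.88 ± 1.25 TPM, above Hdac8 by 1.91 ± 0.065 on the log2 scale (SD, n = 3). Among class IIa enzymes, which shuttle between nucleus and cytosol, Hdac5 gave 75.1% of 18.8 ± 4.59 TPM. Retained-intron transcripts took 31.4, 32.9 and 36.6% of Hdac5, and its long protein-coding transcripts held 7.42 ± 1.15 TPM. Hdac7 was below Hdac5 at a log2 ratio of -3.24 ± 0.097. That ratio was -2.58 with 1 TPM added to both and -2.87 with long protein-coding transcripts alone. Hdac6, the tubulin deacetylase, and Hdac10, a polyamine deacetylase, were not separated, at -0.17 ± 0.34 with 2 of 3 libraries on that side. Hdac4, also of class IIa, averaged 2.28 ± 0.278 TPM (SD, n = 3), and Hdac9 held 0.850, 0.740 and 0.940 TPM. Hdac11 was lowest, with 0.080, 0.160 and 0.180 TPM. Of 21 genes of the NuRD, CoREST, Sin3 and NCoR complexes that carry these enzymes, 20 reached 1 TPM, with Ncor1 at 47.6 ± 6.58 and Rcor2 at 0.070 ± 0.062 TPM (SD, n = 3). All 12 lysine acetyltransferase genes, which work against deacetylases, did so too, Ep300 being highest at 29.7 ± 8.81 TPM.

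All 7 sirtuin genes reached 1 TPM in every library, and Sirt2 alone gave 51.1% of their sum. Sirt2, the cytosolic NAD-dependent deacetylase (chromosome 7), held 35.0, 35.3 and 35.8 TPM, nearly the same in each library. By TMM-scaled CPM it held 93.5, 102.4 and 82.3, so how even the libraries are depends on the scale. Sirt7, a nucleolar deacetylase, held 16.8, 16.1 and 25.4 TPM, above the nuclear Sirt6 at 5.30, 5.77 and 6.58 TPM. Sirt1, the best-studied nuclear member, held 3.03, 2.39 and 2.76 TPM, and the log2 ratio of Sirt2 over Sirt1 was 3.70 ± 0.18 (SD, n = 3). The mitochondrial Sirt3, Sirt4 and Sirt5 summed to 6.31 ± 1.34 TPM. Sirt4 was the single member of 68 at a mean of 1 TPM or more whose leading transcript was not protein-coding, against 4.84% of protein-coding genes. Its retained-intron transcripts took 84.3, 81.3 and 77.3% of its TPM, and its long protein-coding transcripts held 0.410 TPM on average.

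The 7 Brd genes all reached 1 TPM in every library. Their RNA summed to 149.7 ± 20.7 TPM, of which Brd2 gave 48.8%, and their median was 7.07 ± 1.59 TPM (SD, n = 3). Brd2 (chromosome 17, 34112023 to 34122634, minus strand) held 73.0, 63.5 and 82.5 TPM. Brd3, a BET protein like Brd2, held 3.51, 4.09 and 5.01 TPM, and its libraries did not overlap those of Brd2. Of Brd2's level, 22.6 ± 1.63% came from a transcript annotated as a target of nonsense-mediated decay. Over all members that class took 4.60 ± 0.069% of TPM, against 1.66 ± 0.057% over all other protein-coding genes. Without Brd2 the members' share was 2.38 ± 0.160% (SD, n = 3). Brd7, a subunit of the PBAF remodelling complex, exceeded Brd9, of the non-canonical BAF complex, by 2.15 ± 0.14, but a processed transcript of 511 bases took 36.5 ± 12.2% of Brd7 and the ratio was 1.49 with long protein-coding transcripts alone. Brd1 and Brd8, subunits of acetyltransferase complexes, averaged 7.07 ± 1.59 and 5.52 ± 1.23 TPM (SD, n = 3).

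**Figure D4:**
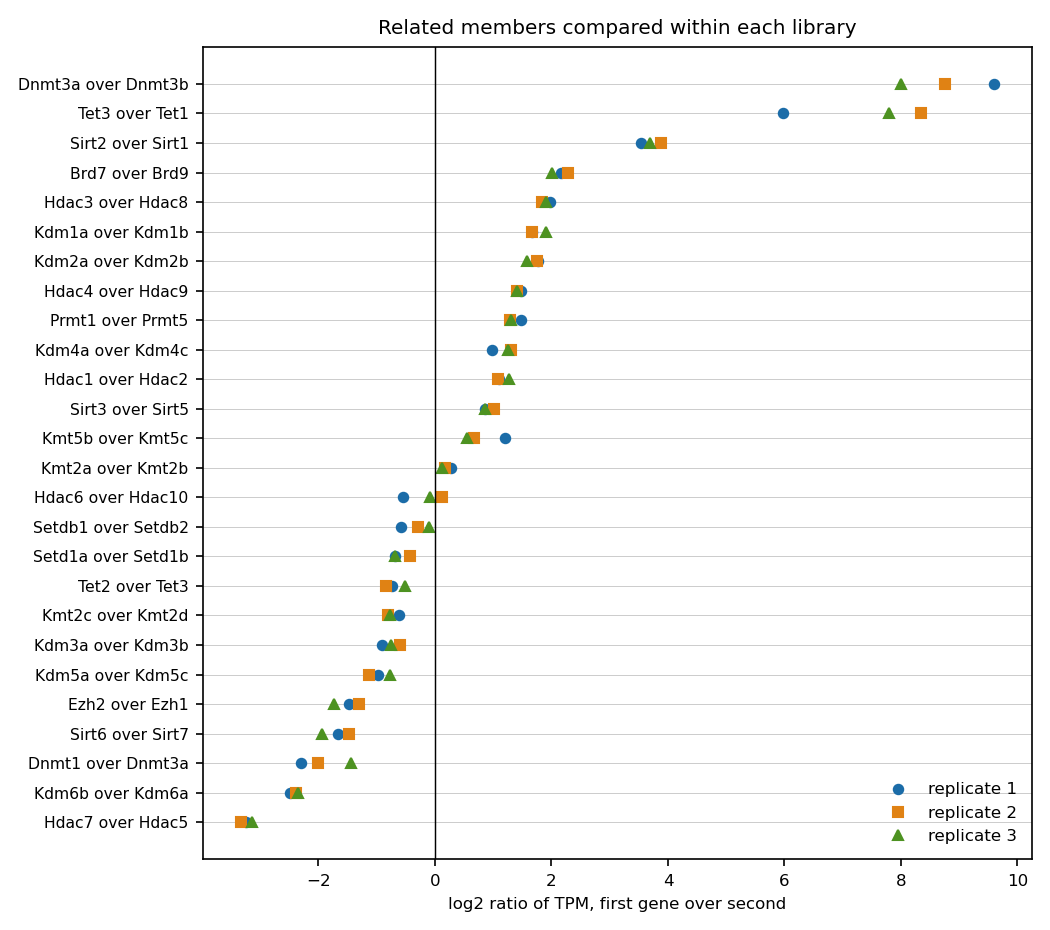
log2 ratio of TPM of the first gene over the second for 26 pairs of related members, sorted by mean, with replicates 1, 2 and 3 as circles, squares and triangles. In 25 pairs the 3 libraries lie on the same side of 0, and Hdac6 over Hdac10 is the pair that straddles it.

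Replicate 3 differed in the transcripts it held for these genes. By TPM, 61 of 68 members with 1 TPM or more by mean were highest in replicate 3 (89.7%), against 68.6% of 8793 protein-coding genes. The median member was 1.38-fold higher in replicate 3 than the mean of replicates 1 and 2, and the median protein-coding gene 1.17-fold. With protein-coding transcripts of 1000 bases or more these were 1.22-fold and 1.12-fold. By TMM-scaled counts the median log2 difference was 0.09 for members and -0.07 for protein-coding genes, so the direction of the background turned. On that scale 38 of 75 tested members (50.7%) were highest there, against 27.7% of protein-coding genes.

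Retained-intron transcripts, which keep an intron and are often held in the nucleus, took 5.04, 4.72 and 10.6% of the members' summed TPM in replicates 1, 2 and 3. Over all other protein-coding genes they took 2.82, 2.94 and 4.47%. Tet2 had 10.6, 7.22 and 37.2% of its TPM in such transcripts and Kdm6a 3.35, 10.1 and 29.3%. Setd5, Brd8, Sirt7 and Kdm3a had 18.7 to 24.0% in replicate 3 and at most 7.28% in the others. Per gene the share was highest in replicate 3 for 50 of 57 members that had such a transcript annotated (87.7%), a fraction near the 82.8% of protein-coding genes. Malat1 and Neat1 rank the libraries in the same way, replicate 3 being highest, and their part in these values was not tested.

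**Figure D5:**
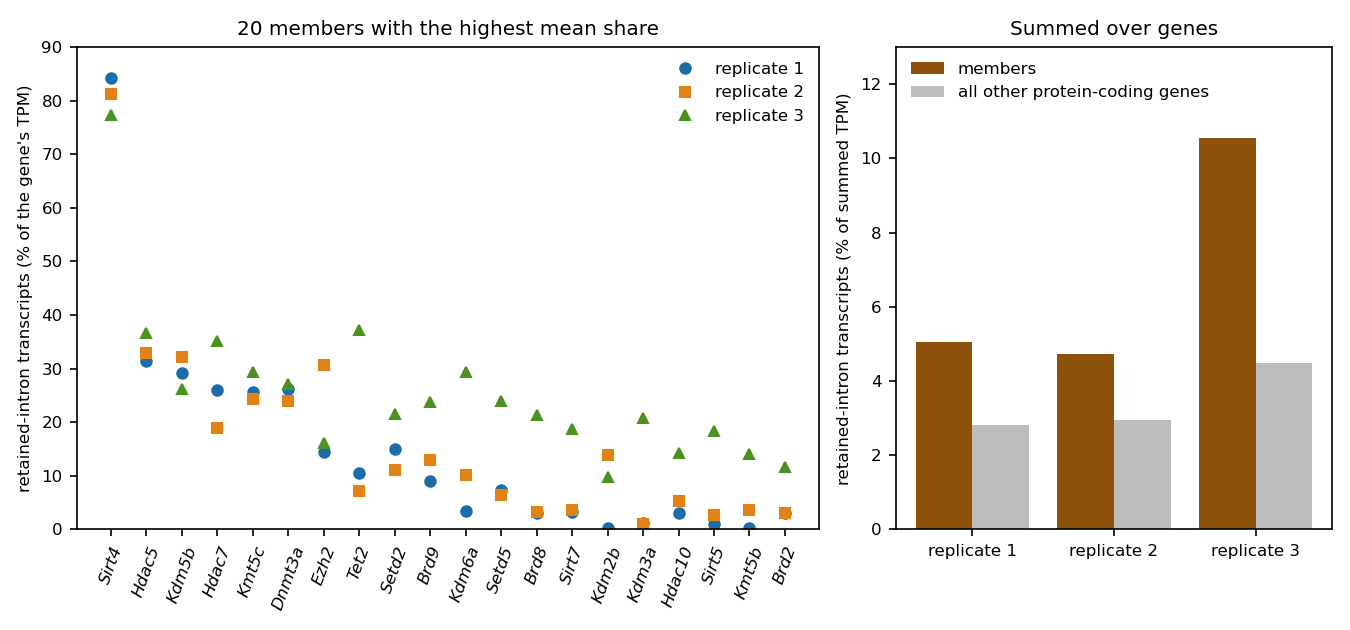
Left, share of each gene's TPM, in percent, in retained-intron transcripts for the 20 members with the highest mean share, with replicates 1, 2 and 3 as circles, squares and triangles. Right, the same share of summed TPM in each library for all members and for all other protein-coding genes, where replicate 3 has 10.6% in members and 4.47% in the others.

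Some levels could hold reads of neighbouring genes. Exons of 33 members overlap an exon of another gene, on the opposite strand for 29, and the sources used here do not say whether counting used strand. For 12 members the other gene held 1 TPM or more on average, and for 6 it was above the member. Hdac7 overlaps Slc48a1 (58.8 TPM), Kdm1b overlaps Dek (36.1 TPM), Setdb1 overlaps Cers2 (53.6 TPM) and Sirt3 overlaps Psmd13 (28.8 TPM). Kdm2b overlaps Rnf34 (8.76 TPM) by up to 627 bases, and Hdac11 overlaps Gm44002 (0.183 TPM). The levels of these 6 members, with the ratios and start-site shares that rest on them, are uncertain. Kdm4b had a deposited 95% interval of 2.77 to 32.2 TPM around 2.94 TPM in replicate 2.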

How the data were processed

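Ribosomal RNA-depleted total RNA from the cytosolic fraction was sequenced in 3 libraries of 1 group, with replicate numbers from the labels. Per the deposited README, reads were aligned to mm10 with annotation M21 for the gene tables and 1 set of transcript tables, while the other set was made directly from the reads. The programs for these steps were not given in the sources used here. Expected counts, as deposited, are estimates that split reads shared between genes. TPM and posterior mean TPM were deposited as abundances corrected for length and summed over every row of a table, tRNA and spike-in rows included. The deposited FPKM are corrected for length and library total. The deposited isoform percent gives each transcript's share of its gene, and the deposited interval bounds are in TPM, all per the file headers.

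Rows naming no gene (26345, with 0.418, 0.248 and 0.165% of counts) were left out. Biotypes and coordinates come from GENCODE M21, and promoter windows from RefSeq (GRCm38.p6), 250 bases before each start. Expected counts were rounded and scaled by TMM in edgeR 4.0.16 (R 4.3.3). Genes with a mean of 10 or more counts were tested by a chi-square test of homogeneity between libraries, Benjamini-Hochberg adjusted over all genes tested, with 0.5 counts added for ratios. The script was checked on simulated data. Levels are TPM as mean ± SD over libraries, and ratios are log2 within each library. With 3 libraries no exact test of a ratio can go below p = 0.25, so none was run. Alternatives were FPKM, posterior mean and read-derived TPM, other thresholds, DESeq2 1.42.0 size factors and each replicate left out. Transcripts of 1000 bases or more, the added writers and leaving out Brd2 were chosen after seeing the data. Values are given for the 3 highest and the lowest genes of each family, the listed pairs and roles, and the highest 2 and the lowest genes of the other lists. Further members, and Neat1, Nsd and Y-linked genes, were named after their values were seen. Members and lists were chosen with earlier results of these data known. Scripts ran in Python 3.11.15 with pandas 2.3.3, scipy 1.17.1, numpy 2.4.6 and matplotlib 3.10.9. Results for some genes are not reported here.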

Additional observations from a re-analysis of the deposited data

Results flagged for a closer look

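Among the 4 symbols that match the families' names but are not protein-coding, the antisense gene Dnmt3aos was above the limit that a count of 0 allows in every library. It held 177, 257 and 207 expected counts and 3.23, 2.29 and 2.52 TPM in replicates 1, 2 and 3, a mean of 2.68 ± 0.49 TPM (SD, n = 3). It was flagged because these genes enter none of the comparisons. Its exons overlap those of Dnmt3a by up to 90 bases on the opposite strand, and the part of Dnmt3a reads in its value was not tested. Kdm6bos held 1, 1.01 and 4 counts, and Dnmt3bos and Kdm4dl had none.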

How the results depend on the processing

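The number of members at 1 TPM in every library stayed between 57 and 71 under every other measure and with each replicate left out, and was 36 at a threshold of 5 TPM, where 26.1% of protein-coding genes passed. The number at 10 TPM was 34 by FPKM, 4 by read-derived TPM and 51 with TPM rescaled to protein-coding genes. Of all protein-coding genes 23.8, 6.47 and 32.4% passed there. The median was 9.41 FPKM and 2.28 and 19.1 TPM under the same settings. Members differing between libraries numbered 6 at a ratio of 1.5 (Dnmt3l, Hdac10, Kdm7a, Kmt5a, Kmt5c and Tet3) and 0 to 1 with a replicate left out. A leading transcript that is not protein-coding was found for 3 members with read-derived values (Brd7, Kdm5a and Sirt4) and for 1 to 2 with a replicate left out. Of 33 log2 ratios in 294 recomputations, 6 changed sign. Within a library, FPKM and TPM rescaled to protein-coding genes are TPM times a constant. The 33 recomputations with each of these could therefore not change beyond rounding. Without a change of sign, 16 ratios moved by their SD or more with long protein-coding transcripts and 15 with read-derived TPM. With 1 TPM added 13 moved so, and with posterior mean TPM 7. Hdac6 over Hdac10 was 0.11 with posterior mean TPM, 0.080 with long protein-coding transcripts, and between -0.32 and 0.014 with a replicate left out, the higher value being without replicate 1. Prmt1 over Prmt5 was -0.13 with long protein-coding transcripts, which leaves out its shorter ones. H3K9 and H3K36 writers over erasers were 0.74 and 0.78 with the added writers. No paired analysis was possible because there is 1 group. TPM and FPKM intervals were not recomputed, and levels under 0.1 TPM rest on few counts.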
